A study of Mus musculus with 6 samples.

Results

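Chemokines, cytokines of the interleukin-6 (IL-6) family and colony-stimulating factors were followed here as a set of 42 genes in wild-type mouse embryonic fibroblasts (MEFs) and in MEFs without the histone variant H2AX. The genes were chosen by name, with earlier results of these data known. They are 21 chemokines, 3 atypical chemokine receptors, 3 IL-6 family ligands, 4 of their receptor chains with the feedback inhibitor Socs3, 4 genes of the colony-stimulating factor group, 3 genes of the tumor necrosis factor (TNF) family and 3 lymphoid cytokines. All 42 of 42 had a probe set on the array that carries their symbol alone, among 19938 genes measured in this way. Expression was read on Affymetrix Gene ST arrays from total RNA of untreated cells, with 3 arrays of MEFs from wild-type mice (WT) and 3 arrays of MEFs from H2AX mutant mice (H2AX KO). Both genotypes were grown in the same serum-containing medium. The deposited values are on a log2 scale, so that a difference of 1 is a doubling, and the array medians lay between 6.06 and 6.12.

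Strain, age and sex of the embryos, and the number of independent lines behind the arrays, were not found in the sources used here, and p-values therefore measure the spread between these arrays, which may be technical. The H2ax transcript had log2 values of 8.96, 9.18 and 9.003 on the WT arrays and 7.69, 7.77 and 7.67 on the H2AX KO arrays. The groups did not overlap, in the direction of the labels. The fall was 2.53-fold, and the H2AX KO mean of 7.71 stayed above 6.39, the median over genes of the mean log2 value. Signal thus remained on this probe set in H2AX KO cells, and its source was not tested. The Y-linked genes Eif2s3y, Uty and Kdm5d also fell, with log2 fold changes of -4.04, -3.73 and -2.88. The sex of the source embryos may therefore differ between the groups, which was not tested. H2AX genotype cannot be told apart from such a difference for any gene below. Of 12 fibroblast markers, 11 lay above the median gene (a log2 value of 6.39), whereas 9 of 11 macrophage and leukocyte markers and 5 of 5 endothelial markers lay below it.

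Chemokines are small secreted proteins that guide migrating cells along gradients, and they act on G protein-coupled receptors carried mostly by leukocytes. Atypical chemokine receptors bind the same ligands without G protein signaling and shape the gradients by removing them. IL-6 family cytokines share the signaling chain gp130 (Il6st), which works with further receptor chains, some of them shared by several ligands, and activates JAK kinases and STAT3. Colony-stimulating factors govern survival and growth of macrophages and granulocytes, and fibroblasts are a known source of many of these factors.

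H2AX KO MEFs differed from WT MEFs in 21 of the 42 genes, in both directions. At an adjusted p under 0.05 (limma, Benjamini-Hochberg over all 19938 genes), 12 genes were higher in H2AX KO cells, where 18.4% of all genes were called higher, and 9 were lower, where 15.0% of all genes were called lower. In either direction, 33.4% of all genes were called. By the mean over the 6 arrays, 16 of the 42 lay above the median gene and 26 below it. The median log2 fold change of the set was 0.04, beside 0.02 over all genes, and the median size of the change regardless of sign was 0.20, beside 0.13. These shares and medians are descriptions, and the set was not tested as a whole. Because the genes were chosen with earlier results of these data known, the distance from all genes may reflect that choice, which was not tested.

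Most of the changes were small. Only Cx3cl1, Ackr3, Lifr and Tnfrsf11b also passed a fold-change over 2, which is 9.52% of the set and 5.30% of all genes. Of these 4, Cx3cl1 was lower, as 3.18% of all genes were by that measure, and the other 3 were higher, as 2.12% were. The values of the 3 WT and the 3 H2AX KO arrays did not overlap for 26 of the 42 genes, a property that 44.8% of all genes had. In 15 of these the H2AX KO arrays were the higher ones (25.3% of all genes) and in 11 the lower ones (19.5%).

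**Figure D1:**
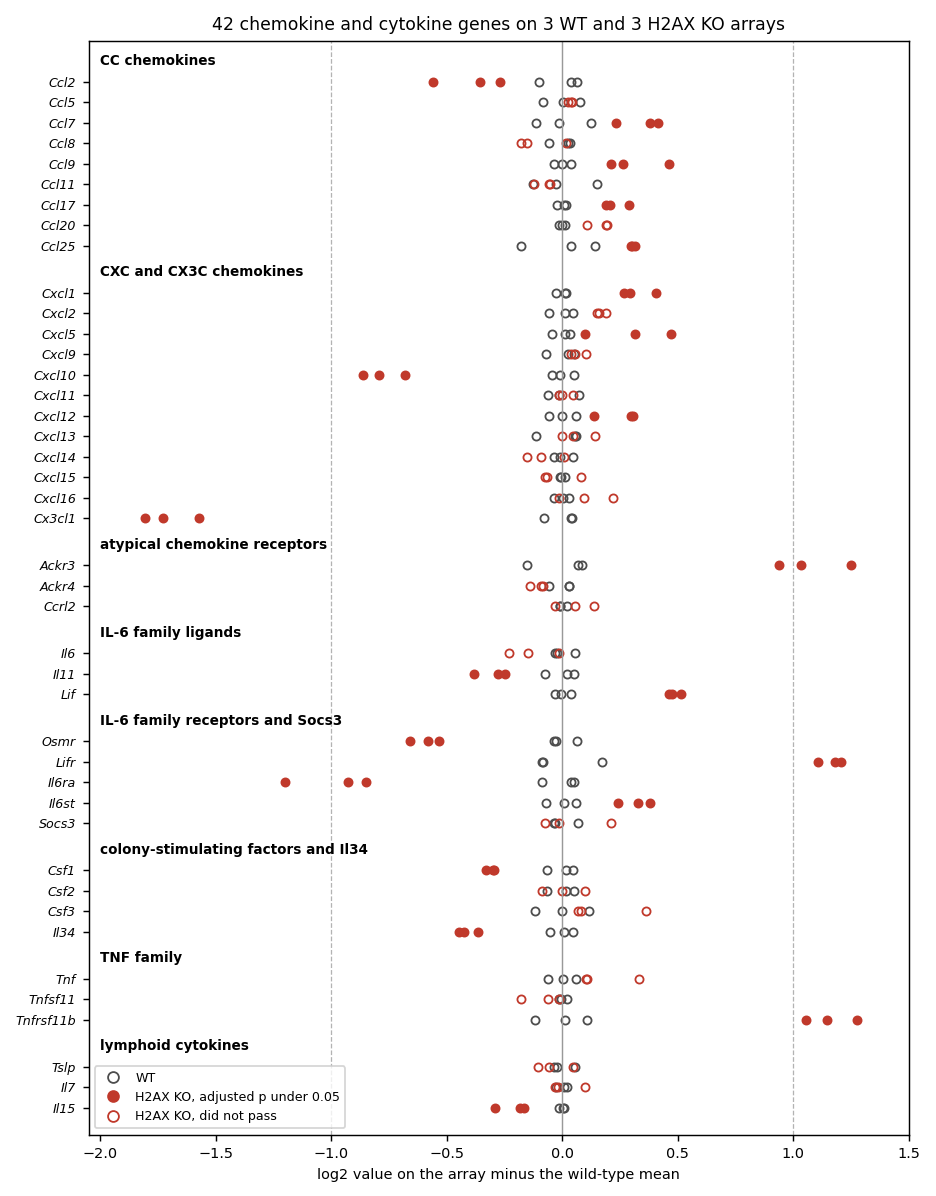
Log2 value of each of the 42 genes on each array, given as the difference from the mean of the 3 WT arrays, with genes grouped by role. Grey open circles are WT arrays, red circles are H2AX KO arrays, filled where the gene passed an adjusted p under 0.05, and the dashed lines mark a 2-fold difference. Cx3cl1 lies farthest to the left, with log2 fold change -1.70, and Lifr, Tnfrsf11b and Ackr3 farthest to the right, with 1.16, 1.16 and 1.07.

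The upstream sequence of 6 of these genes is given to set the gene with the deepest fall, Cx3cl1, beside the 5 genes whose window holds a match to the binding motif of NF-κB, a transcription factor that drives many cytokine genes. The windows are the 250 bases before the annotated transcription start (RefSeq, assembly GRCm38.p6), written 5′ to 3′ on the strand of the gene. Capitals mark matches, on either strand, to GGGA and TTCC parted by any 2 bases (NF-κB), TTTC and TTTC parted by any 2 bases (the interferon-stimulated response element, ISRE), and the letters TGANTCA (AP-1), TTGCNNAA (C/EBP), TTCNNNGAA (STAT) and TGACNNNGC (the antioxidant response element, ARE). These genes were chosen for printing after the matches were seen.

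Cx3cl1 (chr8:94771930-94772179, plus strand): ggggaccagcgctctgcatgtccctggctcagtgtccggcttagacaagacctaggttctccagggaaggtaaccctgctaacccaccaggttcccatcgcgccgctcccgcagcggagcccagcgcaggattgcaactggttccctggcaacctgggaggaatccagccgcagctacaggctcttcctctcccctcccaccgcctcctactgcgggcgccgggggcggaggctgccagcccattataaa
Cxcl10 (chr5:92348890-92349139, minus strand): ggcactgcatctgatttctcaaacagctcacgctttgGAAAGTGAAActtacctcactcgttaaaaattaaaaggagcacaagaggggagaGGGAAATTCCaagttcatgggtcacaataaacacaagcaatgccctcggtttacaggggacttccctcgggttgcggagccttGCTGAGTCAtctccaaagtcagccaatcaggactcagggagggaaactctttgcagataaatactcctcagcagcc
Csf1 (chr3:107760470-107760719, minus strand): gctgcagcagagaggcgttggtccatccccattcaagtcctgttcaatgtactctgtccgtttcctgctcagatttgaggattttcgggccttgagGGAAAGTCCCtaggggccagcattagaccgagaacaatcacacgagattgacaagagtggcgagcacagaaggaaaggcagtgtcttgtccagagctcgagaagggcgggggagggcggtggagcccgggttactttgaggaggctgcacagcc
Cxcl1 (chr5:90890995-90891244, plus strand): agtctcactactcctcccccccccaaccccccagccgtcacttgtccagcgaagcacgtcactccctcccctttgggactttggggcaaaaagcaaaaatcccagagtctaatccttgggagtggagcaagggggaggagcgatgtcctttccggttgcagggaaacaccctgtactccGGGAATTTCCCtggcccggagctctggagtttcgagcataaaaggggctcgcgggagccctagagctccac
Cxcl2 (chr5:90903649-90903898, plus strand): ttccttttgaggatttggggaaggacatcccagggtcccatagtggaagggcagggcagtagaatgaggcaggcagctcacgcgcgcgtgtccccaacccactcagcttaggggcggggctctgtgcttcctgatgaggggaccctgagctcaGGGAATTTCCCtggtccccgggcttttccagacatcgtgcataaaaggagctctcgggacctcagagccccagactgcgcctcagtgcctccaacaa
Il6 (chr5:30012864-30013113, plus strand): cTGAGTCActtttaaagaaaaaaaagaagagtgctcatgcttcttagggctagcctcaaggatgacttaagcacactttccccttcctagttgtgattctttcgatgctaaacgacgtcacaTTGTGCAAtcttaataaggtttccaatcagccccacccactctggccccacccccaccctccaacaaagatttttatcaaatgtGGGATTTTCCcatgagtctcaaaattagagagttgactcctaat

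The window of Cx3cl1 held no match to any of these motifs. In Cxcl10 the capitals are, from left to right, an ISRE, an NF-κB match and an AP-1 match that lies inside an ARE match, and in Il6 they are AP-1, C/EBP and NF-κB. The single stretch in Csf1 is an NF-κB match, and those of Cxcl1 and Cxcl2 are each a pair of overlapping NF-κB matches. Upstream sequence was given for 29 of the 42 genes, with 34 starts. NF-κB letters stood in 5 of these 34 windows (14.7%) and in 1.21% of 32851 windows of all genes. The genes with an NF-κB match did not share a direction, because Cxcl10 and Csf1 fell, Cxcl1 rose, and Cxcl2 and Il6 were not called. ISRE letters stood in 5.88% of the 34 windows and 2.98% of all, AP-1 in 14.7% and 6.75%, C/EBP in 11.8% and 9.56%, STAT in 8.82% and 7.02%, and ARE in 14.7% and 10.2%. A match describes the letters and not the binding of a factor, and the shares were not tested.

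Among the 9 CC chemokines, Ccl7, Ccl9, Ccl17 and Ccl25 rose in H2AX KO cells, Ccl2 fell, and Ccl5, Ccl8, Ccl11 and Ccl20 were not called. Ccl2 (MCP-1), the main attractant of monocytes, had log2 values of 9.98, 10.01 and 9.84 in WT cells and 9.67, 9.38 and 9.59 in H2AX KO cells. All H2AX KO values lay below all WT values, with a log2 fold change of -0.39 ± 0.09 (SE, the standard error from limma, adjusted p = 0.0057). Ccl7 (MCP-3), which attracts monocytes through some of the same receptors, moved the other way, with 8.51 to 8.75 in WT cells and 8.85 to 9.03 in H2AX KO cells, a log2 fold change of 0.34 ± 0.08 (SE, adjusted p = 0.0087). The neighbors Ccl2 and Ccl7 thus changed in opposite directions, each by less than 1.5-fold.

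The other CC chemokines that rose did so by a similar amount. Ccl9, a ligand of Ccr1, rose by 0.31, Ccl17, a ligand of Ccr4 that attracts T helper cells, by 0.23, and Ccl25, which guides T cells to thymus and gut, by 0.30 on the log2 scale. For Ccl25 a dimmer second probe set differed by 0.72 between the genotypes, so that the size of its change depends on the probe set. The methods' one-way analysis of variance, which does not moderate the variance of a gene, did not call Ccl2, Ccl7, Ccl9 or Ccl25. Over all settings, with the highest value always from that analysis, their adjusted p ranged from 0.0029 to 0.065, 0.0037 to 0.068, 0.0048 to 0.064 and 0.0003 to 0.10, in this order. Ccl25 was also lost without H2AX KO replicate 3 (adjusted p = 0.059). Ccl5 (RANTES), an attractant of T cells, had group means of 8.25 and 8.28, and its interval for the log2 fold change ran from -0.11 to 0.18. Ccl8, Ccl11 (eotaxin) and Ccl20 had log2 fold changes of -0.10, -0.08 and 0.16, and all 3 lay below the median gene.

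The 12 CXC and CX3C chemokines held the deepest fall of the set. Cx3cl1 (fractalkine), which is made as a membrane-bound adhesion molecule and shed as an attractant of cells that carry Cx3cr1, had log2 values of 9.10, 9.22 and 9.22 in WT cells and 7.37, 7.61 and 7.45 in H2AX KO cells. The lowest WT array was well above the highest H2AX KO array. The log2 fold change was -1.70 ± 0.08 (SE, adjusted p = 1.252e-07), a level 3.25-fold lower. Over all settings it stayed between -1.77 and -1.65. Its receptor Cx3cr1 had group means of 5.96 and 6.07 and was not called.

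Cxcl10 (IP-10), an interferon-inducible ligand of Cxcr3, also fell, from 6.69 to 6.78 on the WT arrays to 5.87 to 6.05 on the H2AX KO arrays. The log2 fold change was -0.78 ± 0.07 (SE, adjusted p = 1.614e-05), a 1.71-fold lower level. The related Cxcr3 ligands Cxcl9 and Cxcl11 were not called, with log2 fold changes of 0.07 and 0.01 around log2 values of 4.76 to 5.22. RefSeq lists Cxcl11 as a transcribed pseudogene in this assembly.

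The neutrophil attractants Cxcl1 (KC) and Cxcl5 (LIX) rose, by 0.32 ± 0.06 (SE, adjusted p = 0.0031) and 0.29 ± 0.09 (SE, adjusted p = 0.034) on the log2 scale. Cxcl5 was carried by H2AX KO replicates 1 and 2, at 4.80 and 4.96, whereas replicate 3, at 4.59, was close to the highest WT array, at 4.52. Its call was lost with any array left out other than H2AX KO replicate 3, and its adjusted p ranged from 0.0074 to 0.15 over all settings. Cxcl2 (MIP-2), the third neutrophil attractant, had a log2 fold change of 0.17 and did not pass (adjusted p = 0.064), although its arrays did not overlap. Cxcl5 and Cxcl2 lay low on the arrays, below the median gene, at group means of 4.45 to 4.78. Cxcl1 lay above the median gene, at group means of 7.35 and 7.67. Cxcl15 (lungkine), known from lung epithelium, differed by -0.02.

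Cxcl12 (SDF-1), the ligand that retains stem cells and leukocytes in stromal niches, had log2 values of 7.82, 7.88 and 7.94 in WT cells and 8.19, 8.02 and 8.18 in H2AX KO cells. The groups did not overlap but lay close together, with a log2 fold change of 0.25 ± 0.07 (SE, adjusted p = 0.023). The call was lost without WT replicate 1, WT replicate 2, H2AX KO replicate 1 or H2AX KO replicate 3, and the adjusted p ranged from 0.0063 to 0.097 over all settings. The B cell attractant Cxcl13, the epithelial and stromal chemokine Cxcl14 and the membrane-bound Cxcl16 were not called, with log2 fold changes of 0.06, -0.08 and 0.10.

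Ackr3 (CXCR7), the scavenging receptor that removes Cxcl12, rose by over 2-fold. It had log2 values of 4.83, 4.61 and 4.85 in WT cells and 6.01, 5.70 and 5.79 in H2AX KO cells. The 2 sets of arrays were clearly apart, with a log2 fold change of 1.07 ± 0.10 (SE, adjusted p = 1.81e-05), although both means lay below the median gene. Without WT replicate 2 or without H2AX KO replicate 1 the log2 fold change was 0.996 and 0.984, just under 2-fold, and the gene was still called at the adjusted p. Cxcr4, the signaling receptor of Cxcl12, had group means of 4.92 and 4.87 and was not called. The other atypical receptors, Ackr4, a scavenger of CC chemokines, and Ccrl2, which presents chemerin, had log2 fold changes of -0.10 and 0.05 and were not called.

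**Figure D2:**
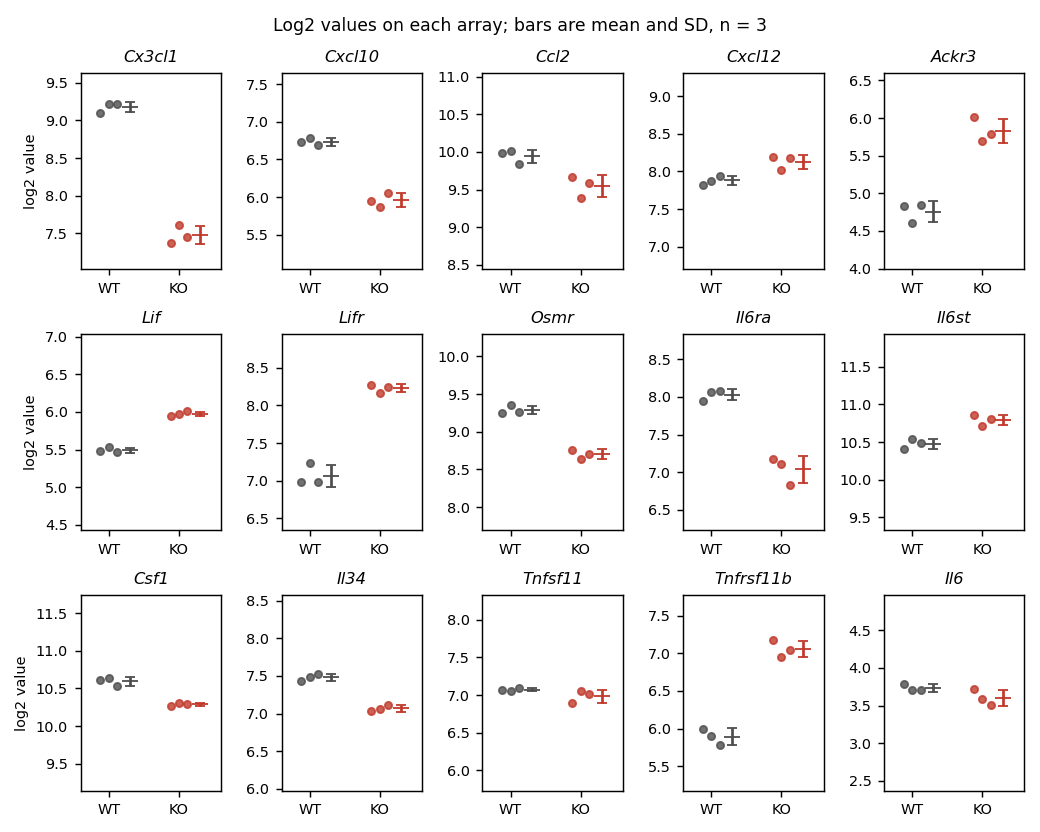
Log2 value of 15 genes on each WT (grey) and H2AX KO (red) array, with the mean and SD (n = 3) beside the points. All panels span the same number of log2 units, so that distances can be compared between genes but levels cannot. Cx3cl1, Ackr3, Lifr, Il6ra and Tnfrsf11b show the widest gaps between genotypes. Tnfsf11 and Il6, which were not called, show the genotypes close together, with overlap for Il6 and narrowly none for Tnfsf11.

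Chemokine genes often lie in clusters, and the RefSeq gene order was used to set the calls of neighbors side by side. In the cluster on chromosome 11 that begins with Ccl2 and Ccl7, 6 genes were measured, of which 1 rose, 1 fell and 4 were not called. In the other chromosome 11 cluster, Ccl9 rose and the remaining 4 of 5 genes, Ccl5 among them, were not called. In the larger chromosome 5 cluster Cxcl5 and Cxcl1 rose, whereas Ppbp, which lies next to Cxcl5 and encodes the precursor of the platelet chemokine CXCL7, stood at a log2 fold change of -2.13 and thus fell (adjusted p = 1.436e-07), and 4 of the 7 genes were not called. Cx3cl1 lies between Ccl22, which was not called (log2 fold change 0.13), and Ccl17, which rose. No adjacent genes of these clusters were both called in the same direction by limma, although Cxcl2, next to Cxcl1, was also called higher under 4 of the other settings. Over all genes, 18.4% were called higher and 15.0% lower. Most measured genes of these clusters lay below the median gene, where 13.8% of genes were called in either direction. Few adjacent pairs had both genes called in any direction, and whether neighbors move together was not tested.

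**Figure D3:**
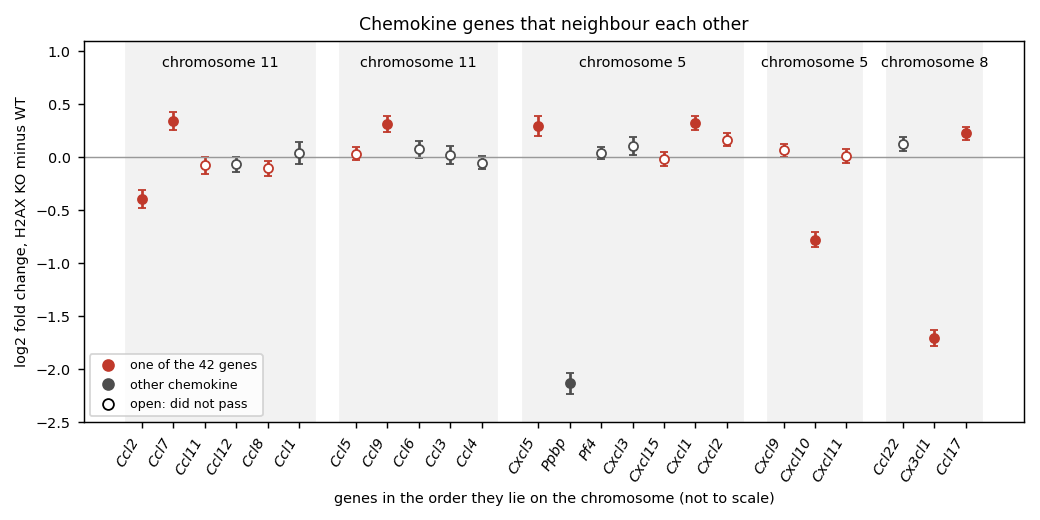
Log2 fold change (H2AX KO minus WT) of chemokine genes in 5 clusters on chromosomes 11, 5 and 8, in the order of the genes and not to scale, with bars of 1 standard error from limma. Red points belong to the 42 genes, grey points are other chemokines, and open points did not pass an adjusted p under 0.05. Ppbp, Cx3cl1 and Cxcl10 stand below neighbors that did not fall.

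Ligands of the IL-6 family moved apart. Il6, the inflammatory cytokine that names the family, had log2 values of 3.79, 3.71 and 3.70 in WT cells and 3.72, 3.59 and 3.50 in H2AX KO cells. The arrays of the genotypes overlapped at these low values, and the log2 fold change of -0.13 did not pass (adjusted p = 0.21), with an interval from -0.29 to 0.03. Lif, which maintains stem cells and signals through Lifr and gp130, rose from 5.46 to 5.53 on the WT arrays to 5.95 to 6.01 on the H2AX KO arrays, a log2 fold change of 0.48 ± 0.06 (SE, adjusted p = 0.00015). Il11, a gp130 cytokine with roles in bone and in fibroblast activation, fell by 0.30 ± 0.07 (SE, adjusted p = 0.0062). Both Lif and Il11 lay below the median gene.

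The receptor chains were called in both directions. Lifr, the chain that binds Lif, had log2 values of 6.98, 7.24 and 6.98 in WT cells and 8.27, 8.17 and 8.24 in H2AX KO cells. The groups were far apart, with a log2 fold change of 1.16 ± 0.08 (SE, adjusted p = 3.042e-06), a 2.24-fold higher level. Il6ra, the chain that binds IL-6, ran the other way, from 7.94 to 8.08 on the WT arrays to 6.83 to 7.18 on the H2AX KO arrays. Its log2 fold change of -0.99 ± 0.09 (SE, adjusted p = 2.57e-05) is 1.99-fold, just short of the fold-change of 2 and so not counted above. It passed 2-fold without WT replicate 1, H2AX KO replicate 1 or H2AX KO replicate 2, at -1.04, -1.06 and -1.03.

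Osmr, the oncostatin M receptor, which also pairs with gp130, fell by 0.59 ± 0.07 on the log2 scale (SE, adjusted p = 7.254e-05), with WT arrays at 9.25 to 9.36 and H2AX KO arrays at 8.63 to 8.76. Il6st, the shared gp130 chain, rose by 0.32 ± 0.07 (SE, adjusted p = 0.0047), from group means of 10.48 to 10.79. Of the 4 receptor chains, the one for Lif and the shared chain thus rose, and those for IL-6 and oncostatin M fell. Osmr and Lifr lie on the same chromosome, 15, as Tnfrsf11b does. Socs3, the STAT3 target that inhibits gp130 signaling, was not called, with group means of 7.77 and 7.81 and an interval from -0.15 to 0.23, and its second probe set differed by 0.01.

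Csf1 (M-CSF), the growth factor on which most macrophages depend, had log2 values of 10.61, 10.64 and 10.53 in WT cells and 10.26, 10.30 and 10.30 in H2AX KO cells. The groups did not overlap and each was tight, with a log2 fold change of -0.31 ± 0.06 (SE, adjusted p = 0.0033). Il34, the other ligand of the same receptor, fell as well, by 0.41 ± 0.06 (SE, adjusted p = 0.00058), from a group mean of 7.48 to 7.07. Both ligands of Csf1r were therefore lower, at 1.24-fold and 1.33-fold. Csf1r itself, a macrophage gene, had group means of 5.18 and 5.24 and was not called. Csf2 (GM-CSF) and Csf3 (G-CSF), which act on granulocytes and macrophages, lay at group means of 4.49 to 5.29 with log2 fold changes of 0.00 and 0.17, and neither passed.

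In the TNF family, Tnfrsf11b (osteoprotegerin), the secreted decoy that blocks the osteoclast factor RANKL, had log2 values of 6.00, 5.91 and 5.78 in WT cells and 7.17, 6.95 and 7.04 in H2AX KO cells. Every H2AX KO array lay far above every WT array, with a log2 fold change of 1.16 ± 0.08 (SE, adjusted p = 3.164e-06), a 2.23-fold higher level. Tnfsf11, which encodes RANKL, had group means of 7.07 and 6.99 and was not called (adjusted p = 0.38), with an interval from -0.23 to 0.06. Its highest H2AX KO array, at 7.0594, lay just below its lowest WT array, at 7.0598. Tnfrsf11a, the signaling receptor RANK, fell by 0.67 (adjusted p = 0.00012). Tnf itself had a log2 fold change of 0.18 at a group mean of 5.01 in WT cells. It did not pass (adjusted p = 0.12), although its arrays did not overlap.

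The lymphoid cytokines lay low on the arrays, at group means of 4.23 to 4.59. Il15, which sustains natural killer and memory T cells, fell by 0.21 ± 0.06 (SE, adjusted p = 0.025). Its call was lost with any array left out other than H2AX KO replicate 2, and its adjusted p ranged from 0.013 to 0.088 over all settings. Median centring and the replicate number as a block also lost the call. Il7, a lymphocyte survival factor, and Tslp, an epithelial cytokine that acts on dendritic cells, had log2 fold changes of 0.02 and -0.04 and were not called.

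The known partners of these genes were listed as 5 groups with 89 genes, of which 80 were measured. Of these, 10 were higher (12.5%, beside 18.4% of all genes) and 17 were lower (21.2%, beside 15.0%), and the share called in either direction, 33.8%, was near the 33.4% of all genes. Receptors named above beside their ligands were picked with their values in view. Of 15 other chemokines, limma on all arrays called Ppbp alone, with 2 genes lower without H2AX KO replicate 2 and 1 gene higher in the one-way analysis of variance. Among 19 chemokine receptors, all of which lay below the median gene, only Ccr7, the homing receptor of dendritic cells and lymphocytes, was called, with a log2 fold change of -0.40, and that call was lost in the one-way analysis of variance (adjusted p = 0.087, over all settings 0.0014 to 0.087). The share called was 6.67% in the first of these lists, where 14 genes lay below the median gene, and 5.26% in the second. Of all genes 33.4% were called, and of those below the median gene 13.8%. The median log2 fold change was 0.04 in the first list and -0.01 in the second.

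Of 19 further genes of the IL-6 family and the JAK-STAT3 pathway, 4 rose (21.1%, beside 18.4% of all genes) and 7 fell (36.8%, beside 15.0%). The count of rises was 2 without WT replicate 2 or without H2AX KO replicate 1, and that of falls was 4 without WT replicate 3 or in the one-way analysis of variance. The largest rises were Socs2, a feedback inhibitor of growth hormone signaling, at 1.16, and Clcf1, a gp130 cytokine that acts through the Cntf receptor, at 0.73. The deepest falls were Jak1, the kinase bound to gp130, at -0.65, and Pias3, an inhibitor of STAT3, at -0.49. Of 12 receptors of colony-stimulating, TNF family and lymphoid cytokines, 1 rose (8.33%, beside 18.4% of all genes) and 3 fell (25.0%, beside 15.0%). The rise was that of the IL-15 receptor chain Il15ra, at 0.28 (2 rose without H2AX KO replicate 1). The TNF receptors Tnfrsf1a at -1.14 and Tnfrsf1b at -0.77 fell deepest.

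Among 15 regulators of cytokine transcription and mRNA decay, 5 rose (33.3%, beside 18.4% of all genes) and 5 fell (33.3%, beside 15.0%). The count of falls was 3 without WT replicate 2, WT replicate 3 or H2AX KO replicate 1, 3 with median centring or the replicate block, and 2 in the one-way analysis of variance. Nfkbia, the inhibitor and target of NF-κB, rose by 0.80 and the NF-κB subunit Rela by 0.52, whereas Irf7, an interferon regulatory factor, and the AP-1 subunit Jun fell, with log2 fold changes of -2.23 and -1.002. The median log2 fold change was -0.03 over the JAK-STAT3 list, 0.00 over the receptor list and -0.03 over the regulators, beside 0.02 over all genes. These lists were not tested as sets.

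**Figure D4:**
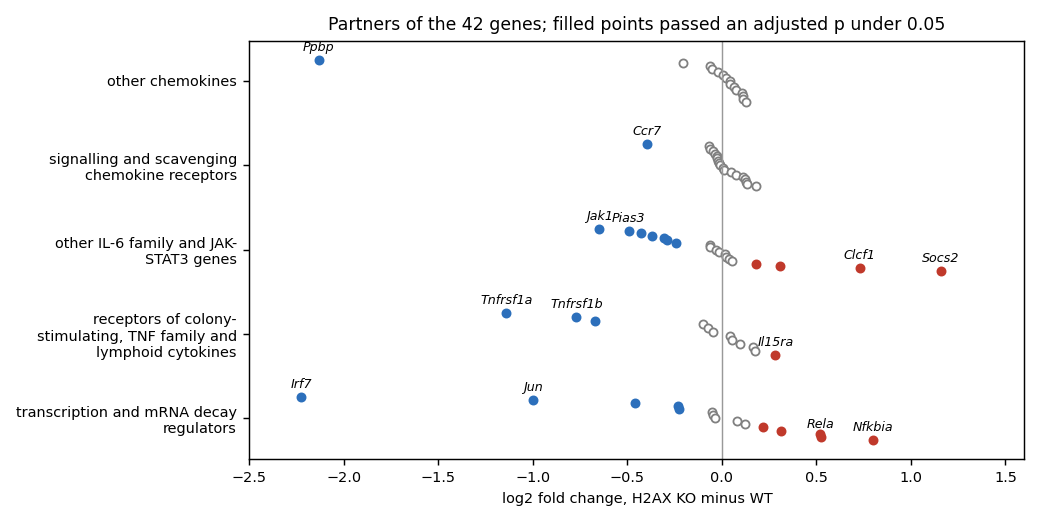
Log2 fold change (H2AX KO minus WT) of the 80 measured partner genes in 5 lists, with the points of a list spread vertically for legibility. Filled points passed an adjusted p under 0.05, blue for lower and red for higher in H2AX KO cells, and open points did not pass. Nearly all chemokines and chemokine receptors lie close to 0, and called genes of both signs lie in the 3 lower lists.

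Markers of other cells were set beside these results. Of 11 macrophage and leukocyte markers, Cd68 rose by 0.29, Cd14 fell by 0.38, and 9 were not called, and their summed level, on a linear scale, was 450 to 484 on the WT arrays and 464 to 470 on the H2AX KO arrays. The leukocyte gene Ptprc and the macrophage gene Adgre1 lay at 5.22 and 4.28 in WT cells and 5.20 and 4.30 in H2AX KO cells. Of 5 endothelial markers, Cdh5 and Emcn fell, with log2 fold changes of -0.47 and -0.41 and a summed level of 154 to 164 in WT and 132 to 145 in H2AX KO cells. The summed level of 5 epithelial markers was 271 to 282 and 263 to 294. Of 12 fibroblast markers, 5 were higher and 5 lower, among them Thy1 with a log2 fold change of 4.03, Fap with -2.57 and Dcn with -2.15. The share called, 83.3%, stands beside 53.1% of all genes above the median gene, where 11 of the 12 lay. It was 18.2%, 40.0% and 0.00% for leukocyte, endothelial and epithelial markers. Most of these lay below the median gene, where 13.8% of all genes were called. The summed level of the fibroblast markers was 32213 to 32944 in WT and 32251 to 32362 in H2AX KO cells. Vim and Fn1, at 13.21 and 12.87 in WT cells, weigh most in this sum, which says little about dimmer markers. The part of these marker differences in the results above was not tested. In bulk RNA of this kind, fewer cells of a type and less RNA per cell cannot be told apart.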

How the data were processed

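Total RNA of MEFs was measured on 6 Affymetrix Gene ST arrays, 3 WT and 3 H2AX KO, grouped by the submitters' labels. The authors made the deposited log2 expression values with Affymetrix Expression Console and Partek (version 6.6, per the submitters' processing notes). The sources used here do not give the background correction or the normalization, and normalized values do not show total RNA per cell. The methods name another version of the array than the one to which the deposited identifiers belong.

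Of 35556 probe sets, 21789 carried 1 gene symbol in the array annotation, and 1621 with several and 12146 not listed were left out. For each of 999 genes with more than 1 probe set the one with the highest mean was taken, which gave 19938 genes. The WT and H2AX KO arrays were compared with limma (version 3.58.1, R version 4.3.3; lmFit and eBayes, no covariates). P-values were adjusted over all genes by the Benjamini-Hochberg method. The call threshold was an adjusted p under 0.05, and a second count also required a fold-change over 2. Intervals are 95% confidence intervals of the log2 fold change. On simulated data with 200 of 19938 genes changed, 98% of changes of 1.5 and 65% of changes of 0.5 on the log2 scale were recovered, with 7 false calls. In the data 6666 genes were called, far more than were changed in the simulation. The adjustment of p-values depends on that share, so these rates do not carry over to this comparison. Depth has no counterpart on arrays, and the number of arrays limits the precision.

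All 42 genes are named. Values on every array are given for those over 2-fold and for Il6, Ccl2, Cxcl12 and Csf1, and from each partner list the 2 largest rises and falls are named. The Y-linked genes and single markers were chosen after their values were seen. The genes, lists and motifs were chosen with earlier results of these data known. As alternatives, the replicate number served as a block, each array was left out, the methods' one-way analysis of variance was run without moderation, the variance prior was given a trend and estimated robustly, values were quantile normalized or median centred, the dimmest 50% of genes were dropped, the probe sets of a gene were averaged, and the fold-change was set to 1.5. Upstream sequences came from a RefSeq table (GRCm38.p6), which was also used for gene order. The deposited values name no genome build.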

Additional observations from a re-analysis of the deposited data

How the results depend on the processing

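Of the 21 called genes, 14 were called under every setting in which they were tested (Ccl17, Cxcl1, Cxcl10, Cx3cl1, Ackr3, Il11, Lif, Osmr, Lifr, Il6ra, Il6st, Csf1, Il34 and Tnfrsf11b), and 7 were lost under at least 1 setting (Ccl2, Ccl7, Ccl9, Ccl25, Cxcl5, Cxcl12 and Il15). Between 18 and 20 were called with an array left out and 17 in the one-way analysis of variance, 15 of them shared with the main comparison. Ccl20 and Cxcl2 were added by that analysis, by quantile normalization and by median centring, and Cxcl2 also by the variance prior with trend. Without the dimmest 50% of genes, where 16 of the 42 genes were tested, 7 were higher in place of 12, since fewer genes were tested. At a fold-change over 1.5, 7 genes passed in place of 4. Centring turned the log2 fold changes of Cxcl15 and Tslp to 0.0198 and 0.0004. With an array left out, the sign turned for uncalled genes only, which ranged from -0.0053 to 0.0748 (Ccl5), -0.1385 to 0.0007 (Ccl11), -0.0186 to 0.0482 (Cxcl11), -0.0687 to 0.0091 (Cxcl15), -0.0462 to 0.0965 (Socs3), -0.0457 to 0.0487 (Csf2) and -0.0263 to 0.039 (Il7).

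Arrays with the same replicate number did not deviate together (correlations of -0.29, -0.24 and 0.08 over genes), so that the numbers do not pair the arrays. Between WT and H2AX KO arrays of different number the correlations ran from -0.16 to 0.32, highest for WT replicate 1 with H2AX KO replicate 2. A batch shared by arrays of different number was not tested. With the replicate number as a block, 10 genes were higher, 8 were lower and 5810 of all genes were called in place of 6666, and Cxcl5, Cxcl12 and Il15 were not called (adjusted p = 0.051, 0.050 and 0.070). Median centring moved the median of all genes to 0.06 from 0.02, so that small changes near 0 have no settled sign.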
